A study of Mus musculus with 6 samples.

Results

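Red blood cell genes were examined in RNA-seq counts from fetal mouse leg muscle. Of 8 erythroid genes listed (Alas2, Slc4a1, Sptb, Epb42, Ahsp, Klf1, Gata1 and Rhag), 7 were found by Ensembl ID among the 56262 genes counted, and all 7 passed the filter on low counts. Ahsp was not analysed here. The 8 genes were chosen by their role, with the WT against KO result of these same samples already known, so their differences between genotypes are given as a description with no test. SYISL is a long noncoding RNA whose gene overlaps Synpo2, and the study asked how its loss and the maternal environment bear on fetal muscle. Leg muscle was taken at embryonic day 18.5 from 3 wild type (WT) and 3 SYISL knockout (KO) samples. Parents of each fetus shared its genotype, so WT and KO fetuses had different mothers, and genotype, mother and litter cannot be told apart. The labels give neither the number of fetuses in a sample nor whether replicates came from separate litters. The p-values below therefore measure only the spread between these samples, which may be technical in part. Sex-linked counts, given below, differed between the WT libraries, and between KO replicate 1 and the other KO libraries. Those libraries therefore did not hold the same mix of fetuses. KO replicates 2 and 3 had similar sex-linked counts, and their spread may be technical.

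In fetal mice, red cells are made mainly in the liver and reach muscle through the blood. Alas2 makes the first intermediate of heme in developing red cells. Slc4a1 (band 3, the anion exchanger), beta-spectrin (Sptb), protein 4.2 (Epb42) and the Rh-associated glycoprotein (Rhag) belong to the red cell membrane and the skeleton under it, while Gata1 and Klf1 are the transcription factors that switch on heme, globin and membrane genes through GATA and CACCC motifs. Reticulocytes, the youngest circulating red cells, still carry RNA for late products such as globin, but the early regulators are mostly gone by then. Some of these genes also work elsewhere. Beta-spectrin is part of the membrane skeleton of skeletal muscle fibers, and Gata1 is also active in megakaryocytes and mast cells.

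The promoters are shown because GATA and CACCC motifs are the letters these regulators are known to read. RefSeq (GRCm38.p6) gave the 250 bases before the start for 6 of the genes, not for Slc4a1 and Ahsp. The 4 sequences below are those of Alas2 and Epb42, which were lower in KO, and of Sptb and Rhag, which were higher. For Rhag the groups overlapped. Capitals mark matches to the GATA motif (written AGATAA, with AGATAG, with TGATAA and with TGATAG as its other forms, on either strand) and to CACCC on either strand, which reads GGGTG when it lies on the other strand.
Alas2 (chrX:150547167-150547416, plus strand): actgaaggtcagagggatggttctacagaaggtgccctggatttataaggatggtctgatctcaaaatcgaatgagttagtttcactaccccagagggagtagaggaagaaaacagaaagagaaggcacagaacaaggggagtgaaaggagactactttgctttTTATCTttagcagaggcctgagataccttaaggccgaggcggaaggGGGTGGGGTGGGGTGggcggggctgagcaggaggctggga
Epb42 (chr2:121036878-121037127, minus strand): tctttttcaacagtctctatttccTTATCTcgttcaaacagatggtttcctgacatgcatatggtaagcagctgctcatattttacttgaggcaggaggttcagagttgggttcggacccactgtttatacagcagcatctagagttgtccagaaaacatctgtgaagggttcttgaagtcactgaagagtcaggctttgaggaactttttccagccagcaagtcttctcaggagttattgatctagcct
Sptb (chr12:76710548-76710797, minus strand): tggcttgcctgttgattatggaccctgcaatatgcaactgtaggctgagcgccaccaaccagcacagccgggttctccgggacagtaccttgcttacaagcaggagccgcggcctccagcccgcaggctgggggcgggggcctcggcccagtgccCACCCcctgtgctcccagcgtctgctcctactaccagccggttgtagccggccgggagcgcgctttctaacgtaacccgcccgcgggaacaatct
Rhag (chr17:40810899-40811148, plus strand): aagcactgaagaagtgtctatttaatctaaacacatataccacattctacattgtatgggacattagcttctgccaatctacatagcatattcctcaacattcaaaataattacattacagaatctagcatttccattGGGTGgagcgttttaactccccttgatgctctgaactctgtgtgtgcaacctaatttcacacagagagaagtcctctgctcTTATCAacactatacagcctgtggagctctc
Counting the base before the start as -1, the GATA match lay at -86 to -81 in Alas2, at -226 to -221 in Epb42 and at -31 to -26 in Rhag. A run of 3 CACCC matches lay side by side in Alas2, from -40 to -26. Positions count from the RefSeq start, which differs from the GENCODE gene start given with each gene below, except for Sptb. The RefSeq start lies 42 bases inside the GENCODE gene for Alas2, 195 for Epb42, 54 for Klf1, 23 for Rhag and 10161 for Gata1, so the 3 CACCC matches of Alas2 and the 2 of Gata1 fall inside the GENCODE gene. The Klf1 promoter held 1 GATA match at -80 to -75 and 1 CACCC match, and the Gata1 promoter held 2 CACCC matches and no GATA match. In all, 4 of the 6 promoters held a GATA match, against 26.5% of 32851 promoters of the same length. A CACCC match was found in 5 of 6, against 52.0% of all promoters, and the E-box CANNTG in 4 of 6, against 66.2%. Alas2 and Epb42, lower in KO, each held a GATA match, and Sptb, higher in KO, held none. Rhag and Klf1, whose groups overlapped, each held both motifs. Slc4a1, also lower in KO, had no promoter to read. These are 6 promoters of genes chosen with the contrast known, and a link of motif to direction was not tested.

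Each sample held 82054811 to 102233181 counts, and 3 counts in a library corresponded to 0.0284 to 0.0363 CPM (the usual depth-scaled count, here of TMM-scaled totals). Synpo2, the host gene of SYISL, was at 136 CPM among WT and 214 CPM among KO samples, and SYISL could not be looked up by symbol, so the deletion itself was not checked. Genes of other tissues differed strongly between genotypes. The summed level of 8 keratinocyte genes was 16000 to 23800 CPM among WT and 696 to 804 CPM among KO samples, with 8 of 8 called lower (an edgeR adjusted p under 0.05 and a fold over 1.5). The summed level of 8 skeletal muscle genes was 17300 to 19500 CPM among WT and 37500 to 46400 CPM among KO samples, with 7 of 8 called higher. Libraries also differed in sex-linked genes, which the labels do not mention. WT replicate 1 had 140 Xist counts beside 4791 counts of Y-linked Ddx3y, while WT replicate 2 and KO replicate 1 had 64818 and 78491 Xist counts and 1 count of Ddx3y each. The other 3 libraries held both, with 43567 to 58799 Xist counts and 1827 to 2135 Ddx3y counts. In a fit that also held the Y-linked share of each library, chosen after seeing the data, the log2 fold changes were -3.09 for Alas2, -2.07 for Slc4a1, -1.24 for Epb42, 0.72 for Sptb and 1.42 for Rhag. The part of the keratinocyte and muscle differences in the results below was not tested.

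Of the 7 genes, Alas2, Slc4a1 and Epb42 were lower in KO and Sptb was higher. Rhag was higher on the mean, with few counts and groups that overlapped, and Gata1 and Klf1 lay close to WT. Past both thresholds lay 3 genes on the lower side and 2 on the higher side, where 8.39% and 8.31% of the 22071 genes tested were called lower and higher. The 3 WT and 3 KO values did not overlap for 3 genes lower and 1 gene higher in KO, beside 28.5% and 27.3% of all genes tested. Nothing is read from these counts, since the contrast was known when the genes were chosen. The median log2 fold change (KO over WT) of the 7 genes was -0.0082, between -3.10 for Alas2 and 1.32 for Rhag, and that of all genes was -0.0041. In bulk tissue, fewer cells of a type and less RNA per cell cannot be told apart.

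**Figure D1:**
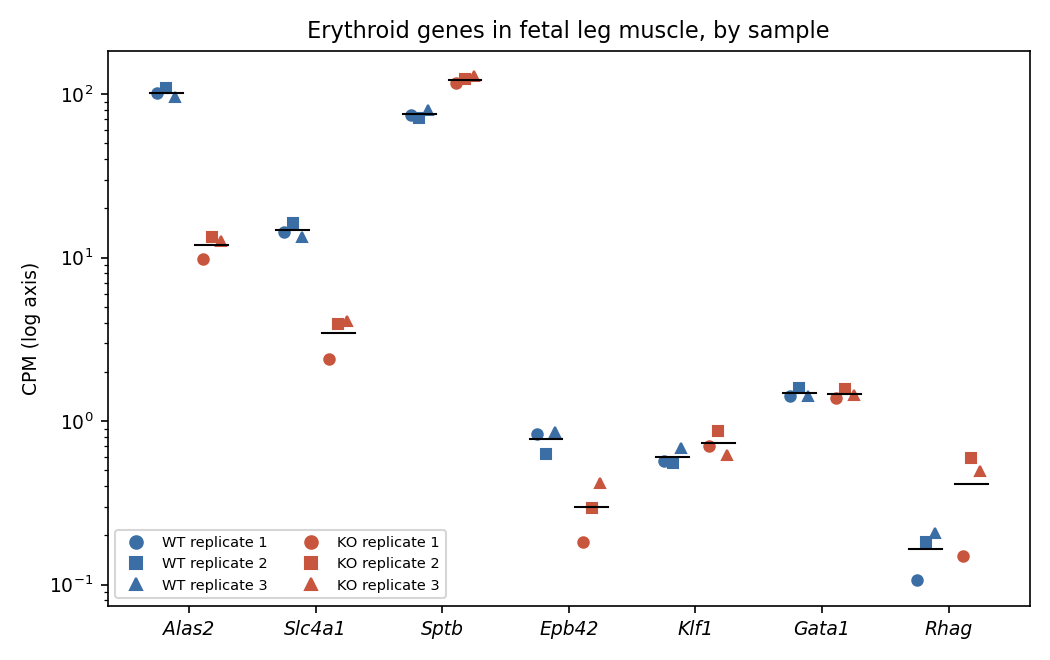
Level of each gene in each sample, in CPM on a log axis, with WT in blue and KO in red, a marker shape for each replicate and a black line at the mean of 3 samples. Alas2, Slc4a1 and Epb42 sit lower in all 3 KO samples, Sptb sits higher in all 3, and the 2 groups of points overlap for Klf1, Gata1 and Rhag.

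Heme synthesis was represented by Alas2 (ENSMUSG00000025270.13, chrX:150547375-150570638 of mm10, plus strand, GENCODE M21), the erythroid form of 5-aminolevulinate synthase. The WT samples held 9631, 9024 and 10085 Alas2 counts, and the KO samples 914, 1277 and 1229. These are 102, 109 and 95.5 CPM against 9.75, 13.4 and 12.6 CPM. Every KO sample lay far under every WT sample, and KO replicate 1 was the lowest. The mean was 102 ± 6.84 CPM among WT and 11.9 ± 1.92 CPM among KO samples (± SD, n = 3 for either genotype), a log2 fold change of -3.10 (SE 0.106), or 8.56-fold lower. Its exons overlap those of Apex2 on the opposite strand, and the strand setting of the counting is not given in the sources used here. Apex2 stood at 13.6 ± 0.404 CPM among WT and 11.4 ± 0.220 CPM among KO samples, a log2 fold change of -0.26, and how many reads the overlap passes to either gene was not tested.

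Of the membrane genes, Slc4a1 (ENSMUSG00000006574.15, chr11:102348824-102366203, minus strand), the chloride and bicarbonate exchanger that anchors the skeleton, had 1357, 1350 and 1400 counts in WT and 224, 372 and 397 counts in KO. In CPM these were 14.3, 16.3 and 13.3 against 2.39, 3.90 and 4.08. The groups were well apart, and KO replicate 1 was again the lowest. With means of 14.6 ± 1.56 CPM among WT and 3.46 ± 0.929 CPM among KO samples, Slc4a1 differed by -2.08 on the log2 scale (SE 0.173), or 4.23-fold lower. Epb42 (ENSMUSG00000023216.13, chr2:121017891-121037072, minus strand), which binds band 3 to the skeleton, was a low gene, with 79, 52 and 91 counts in WT and 17, 28 and 41 counts in KO. These values did not overlap either, and the nearest pair was WT replicate 2 and KO replicate 3. Epb42 stood at 0.775 ± 0.127 CPM among WT and 0.299 ± 0.120 CPM among KO samples, a log2 fold change of -1.37 (SE 0.27).

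Sptb (ENSMUSG00000021061.15, chr12:76580488-76710547, minus strand) was higher in KO, unlike Slc4a1 and Epb42. It had 7053, 5932 and 8429 counts in WT and 10939, 11706 and 12513 counts in KO, which are 74.5, 71.8 and 79.9 CPM against 117, 123 and 129 CPM. All KO samples were above all WT samples, with little spread in either group. The mean was 75.4 ± 4.11 CPM among WT and 123 ± 5.96 CPM among KO samples, a log2 fold change of 0.70 (SE 0.052), or 1.63-fold higher. Its exons overlap those of Plekhg3 on the opposite strand, which stood at 52.7 ± 0.926 CPM among WT and 59.8 ± 2.23 CPM among KO samples. Muscle genes rose in the same libraries, as given above, and the part of muscle in the Sptb level was not tested.

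Rhag (ENSMUSG00000023926.8, chr17:40811126-40840754, plus strand), the ammonia channel that sits with the Rh proteins in the red cell membrane, had few counts, with 10, 15 and 22 in WT and 14, 57 and 48 in KO. KO replicates 2 and 3 were above every WT sample, while KO replicate 1 lay inside the WT range. The mean was 0.165 ± 0.0533 CPM among WT and 0.414 ± 0.235 CPM among KO samples, a log2 fold change of 1.32 (SE 0.476). Without KO replicate 1 the log2 fold change was 1.72, and without KO replicate 2 it was 0.96.

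The transcription factors showed no such distance between genotypes. Gata1 (ENSMUSG00000031162.14, chrX:7959260-7978071, minus strand), the zinc finger factor needed for red cell development, had 134, 131 and 151 counts in WT and 130, 149 and 141 counts in KO. The groups lay over each other, at 1.48 ± 0.0940 CPM among WT and 1.47 ± 0.0895 CPM among KO samples, a log2 fold change of -0.0082 (SE 0.111). Klf1 (ENSMUSG00000054191.9, chr8:84901928-84905291, plus strand), the factor that activates adult beta-globin, had 54, 46 and 72 counts in WT and 66, 83 and 60 counts in KO. These also overlapped, at 0.603 ± 0.0688 CPM among WT and 0.731 ± 0.129 CPM among KO samples, a log2 fold change of 0.27 (SE 0.18). Genes of other cells that use Gata1 are given beside it. Of 8 mast cell genes 5 were called higher and 0 lower by edgeR, with 0 lower at an unadjusted p under 0.05 and by DESeq2 and limma-voom, and a summed level of 1270 to 1450 CPM among WT and 1760 to 2120 CPM among KO samples. Of 7 platelet and megakaryocyte genes tested 3 were called higher and 1 lower, with a summed level of 30.9 to 31.0 CPM among WT and 48.3 to 56.7 CPM among KO samples. Their part in the Gata1 level was not tested.

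Set per exon length, the order of the genes differed between genotypes, in TPM, the count per kb of merged exons scaled to the same total in each sample. In WT the levels were 134 ± 6.41 TPM for Alas2, 19.5 ± 1.42 TPM for Sptb, 9.40 ± 0.821 TPM for Slc4a1, 1.90 ± 0.0902 TPM for Gata1, 1.24 ± 0.163 TPM for Klf1, 0.451 ± 0.0813 TPM for Epb42 and 0.222 ± 0.0729 TPM for Rhag. Each step in this order was larger than the SD of either neighbour. In KO, Sptb came first at 30.8 ± 0.790 TPM, before Alas2 at 15.1 ± 1.89 TPM. Slc4a1 at 2.14 ± 0.507 TPM and Gata1 at 1.83 ± 0.0669 TPM did not differ beyond their spread, with Klf1 next at 1.45 ± 0.244 TPM. Rhag at 0.531 ± 0.291 TPM and Epb42 at 0.167 ± 0.0629 TPM had changed places at the low end.

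Within a genotype, the genes moved together in part. KO replicate 1 was the lowest KO sample for 6 of the 7 genes, all but Klf1, which was lowest in KO replicate 3. Its median deviation from the KO mean was -0.28 on the log2 scale, against 0.18 and 0.096 for KO replicates 2 and 3. The WT samples deviated less, with medians of -0.025, 0.098 and 0.085 for replicates 1 to 3. KO replicate 1 was also the lowest KO sample for 6 of 8 muscle genes. In the erythroid lists given below, it was lowest for 9 of 14 membrane and 8 of 14 heme and iron genes. It was lowest for 3 of 9 transcription and 7 of 11 enzyme and maturation genes. The share over all genes was not computed. KO replicate 1 held 1 Ddx3y count against 1854 and 1827 in KO replicates 2 and 3, and the part of sex was not tested. Over all 6 samples, log2 CPM of Alas2 correlated with that of Slc4a1 at r = 0.99 and with that of Epb42 at r = 0.91, and with that of Sptb at r = -0.98 (n = 6). After the genotype means were removed these were 0.97, 0.56 and 0.22, and all pairs of the 7 genes lay between -0.20 (Sptb with Gata1) and 0.97. The samples share libraries and depth, and with 3 per genotype these values are a description only.

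**Figure D2:**
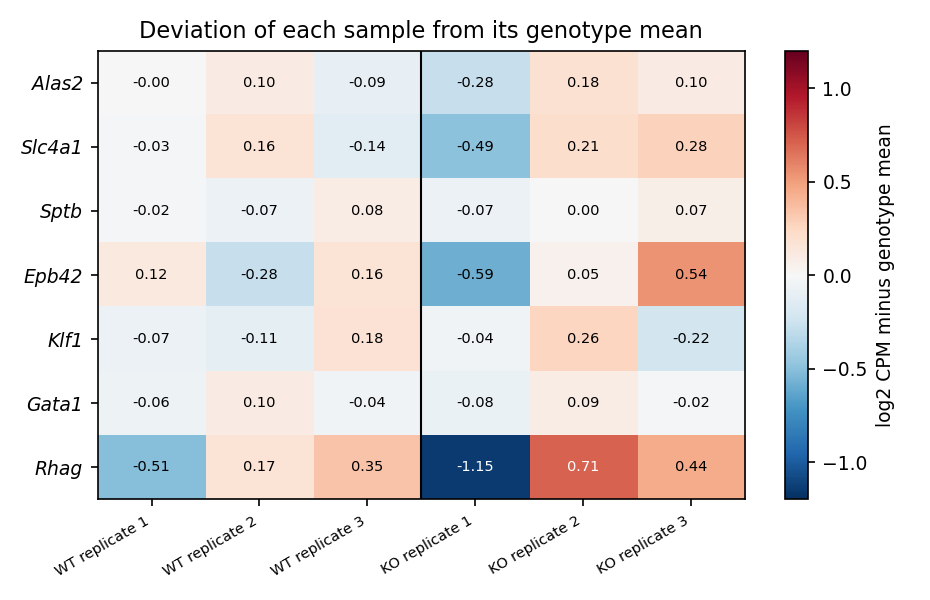
Deviation of each gene in each sample from the mean of its genotype, in log2 CPM, with blue for below and red for above. The column of KO replicate 1 is blue throughout and reaches -1.15 for Rhag, while Sptb and Gata1 hardly vary in any sample.

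The other erythroid genes, which were not among the 8, were tested to see how far the lower group reached. Their lists were also written with earlier results of these data known, so the counts and adjusted p-values below are not independent evidence. Of 52 genes listed by role, 48 passed the filter, 11 fell, 4 rose and 33 did not pass the thresholds, where 8.39% of all genes fell and 8.31% rose. The values of WT and KO did not overlap for 23 of the 48 on the lower side and 11 on the higher side, against 28.5% and 27.3% of all genes. The median log2 fold change was -0.10, with 31 genes below 0 and 17 above, against -0.0041 over all genes. The test was the quasi-likelihood test of edgeR, with Benjamini-Hochberg adjusted p over all genes, and the log2 fold changes below are KO over WT.

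Among membrane genes, 14 were tested, 4 fell and 3 rose, with a median of 0.047. Epb41 (protein 4.1R, which ties spectrin to actin and is found in many tissues) fell by 0.91 and Rhd, the Rh blood group protein, by 0.64 on the log2 scale. Rhd no longer passed without WT replicate 2 (-0.57) or without KO replicate 3 (-0.58). The genes that rose were Ank1, the ankyrin that binds band 3 to spectrin (0.73, adjusted p = 1.92e-06), Xk, the Kell-associated membrane protein (0.72), and Tmod1, which caps actin filaments (0.70, adjusted p = 1.48e-06). Ank1 and Tmod1, like Sptb, are also known from skeletal muscle, where they belong to the contractile and membrane skeleton. Icam4 had 0 counts in each of the 6 samples.

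Most genes of heme and iron handling stayed within the thresholds. Of 14 tested, 0 fell and 1 rose by edgeR, DESeq2 and limma-voom alike, with a median of -0.024. At an unadjusted p under 0.05 and any fold, edgeR had 4 lower and 4 higher. The gene that rose was Steap3, the ferrireductase that reduces iron taken up with transferrin, from 22.1 ± 0.909 CPM to 41.7 ± 0.926 CPM (log2 fold change 0.92, adjusted p = 4.27e-07). Enzymes after Alas2 in the pathway, which every cell uses, stayed within the fold threshold. Fech, which inserts the iron, was at 70.7 ± 2.95 CPM among WT and 60.8 ± 1.93 CPM among KO samples (-0.22, adjusted p = 0.00283), and Tfrc, the transferrin receptor, at 71.9 ± 4.31 and 76.0 ± 5.76 CPM (0.080). Slc25a37 (mitoferrin, the mitochondrial iron importer of red cells) was at 69.9 ± 4.65 and 53.9 ± 1.62 CPM (-0.37, adjusted p = 0.000308).

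Of 9 erythroid transcription genes tested, 2 fell and 0 rose by each of the 3 tools, with a median of -0.19 and 1 gene higher at an unadjusted edgeR p under 0.05. Nfe2, the partner factor of the globin locus control region, fell from 283, 272 and 315 counts in WT to 100, 129 and 114 counts in KO (log2 fold change -1.36, adjusted p = 1.15e-05). Bcl11a, a repressor of embryonic globins that other tissues use too, fell from 26.8 ± 1.17 to 14.0 ± 1.05 CPM (-0.94). Tal1 and Lmo2, which bind with Gata1 and are also active in endothelium, stood at log2 fold changes of 0.057 and -0.025 and did not pass the test. Of 8 endothelial genes 0 were called by edgeR, DESeq2 or limma-voom, 7 were higher at an unadjusted edgeR p under 0.05, and their summed level was 738 to 770 CPM among WT and 845 to 886 CPM among KO samples.

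Of 11 enzyme and late maturation genes tested, 5 fell and 0 rose by each of the 3 tools, with a median of -0.77 and 0 higher at an unadjusted edgeR p under 0.05. Trim10, a ubiquitin ligase of terminal red cell development, differed by -2.73 and Tspo2, the erythroid translocator protein, by -1.95. Bpgm, which makes the bisphosphoglycerate that lowers the oxygen affinity of hemoglobin, fell from 45.9 ± 3.23 to 18.4 ± 2.01 CPM (-1.32, adjusted p = 1.72e-06), and Tent5c, a poly(A) polymerase, by 1.22 on the log2 scale. Epor, the erythropoietin receptor of early precursors, stood at 1.45 ± 0.0904 and 1.71 ± 0.137 CPM (0.24, adjusted p = 0.109).

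**Figure D3:**
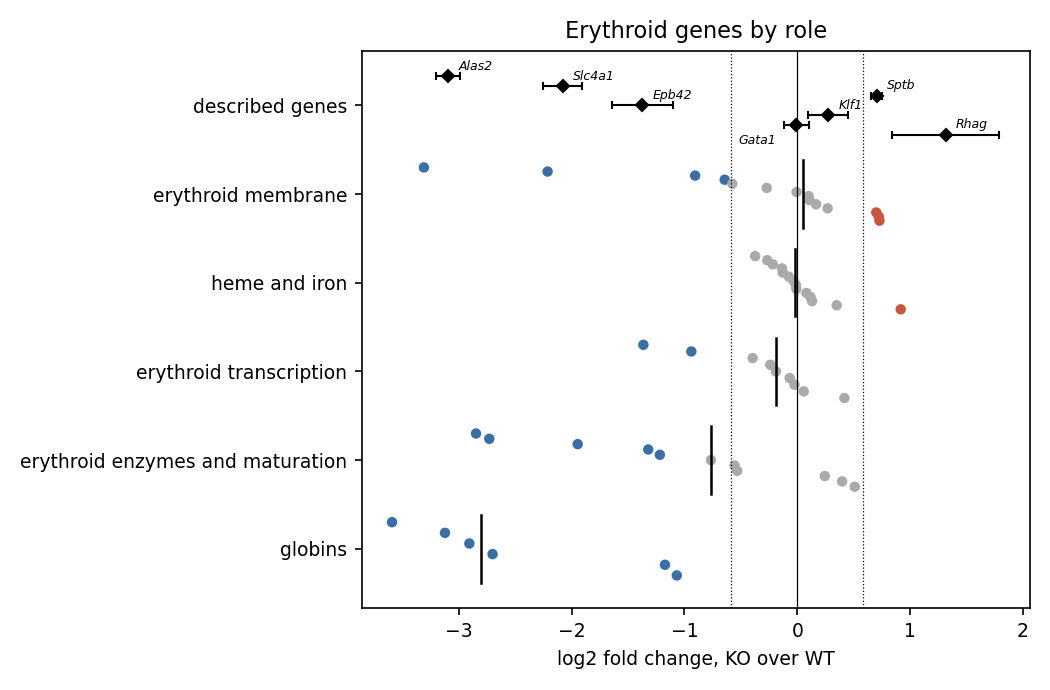
Log2 fold change of KO over WT for the described genes (black diamonds, bars are 1 SE) and for other erythroid genes and globins by role, with blue for genes that fell, red for genes that rose, gray for the rest, a black line at each median and dotted lines at a fold of 1.5. The heme and iron genes crowd around 0, while 5 of 11 enzyme and maturation genes and all 6 globin genes tested were called lower.

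Globins were used as a yardstick for red cell RNA. All 6 globin genes tested fell, and their summed level was 3830 to 5060 CPM among WT and 537 to 652 CPM among KO samples. The near-identical Hba-a1 and Hba-a2 share reads, so their single values are uncertain. Set against Hbb-bs, an adult beta-globin, Alas2 had 44.0 ± 1.87 counts per 1000 Hbb-bs counts in WT and 38.3 ± 4.61 in KO, and the 2 groups overlapped. Slc4a1 had 6.29 ± 0.0260 counts per 1000 Hbb-bs counts in WT and 11.1 ± 2.78 in KO, with every KO sample above every WT sample. Epb42 was higher on this scale as well, at 0.339 in WT and 0.966 in KO. Trim10 stayed near its WT ratio, at 0.848 in WT and 0.952 in KO. The globins did not fall alike, with log2 fold changes of -2.70 for Hba-a1, -2.91 for Hbb-bs and -3.59 for Hbb-bt. Hba-a1 itself had 486 ± 14.6 counts per 1000 Hbb-bs counts in WT and 561 ± 13.8 in KO. The ratios therefore depend on the globin chosen, and those to other globins are not given here. The ratios to Hbb-bs come from the contrast that was known when Alas2, Slc4a1 and Epb42 were chosen, and none was tested.

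**Figure D4:**
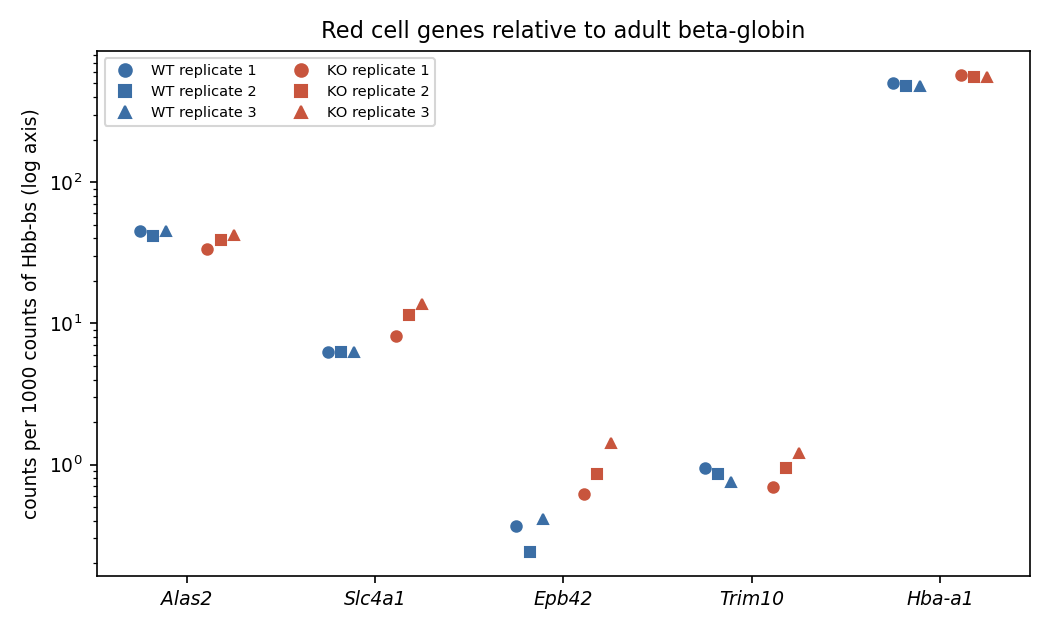
Counts of red cell genes per 1000 counts of Hbb-bs in each sample, on a log axis, with WT in blue and KO in red and a marker shape for each replicate. Alas2 and Trim10 overlap between genotypes, while Slc4a1 and Epb42 sit higher in all 3 KO samples.

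The genes whose profile over the 6 samples lay nearest to that of each gene, by Euclidean distance of centred log2 CPM among 15869 genes with a mean of at least 1 CPM, were mixed in kind. Nearest to Alas2 were Lgals3 (r = 0.9997), Defb1, Chac1 and Btc, and Hbb-bs came at rank 10 (n = 6 samples). After the genotype means were removed, r of the first 10 with Alas2 lay between 0.54 (Acpp) and 0.98 (Lgals3). Nearest to Slc4a1 were Lce1b, Ide and Lce1d, of which Lce1b and Lce1d encode late proteins of the cornified skin layer. Lce1e and Lce1k, of the same family, came at ranks 5 and 9. Nearest to Epb42 were Mid1, Tac1 and Chil1, with Bpgm at rank 4 and Hba-x at rank 10. Nearest to Sptb were Nceh1, Dnajc12 and Ank1. For Gata1 these were Timm10b, Pfn1 and Dact3, for Klf1 Catip, Gm49201 and Nubpl, and for Rhag Gm2451, Me3 and Hist1h1d. The mean profile of the 7 genes, in which genes of opposite direction cancel, lay nearest to Cfap52, Dmp1 and Rgs9bp, and Car2 was the erythroid gene among its first 10, at rank 7. Keratinocyte genes fell in these same libraries, and the part of skin in these profiles was not tested.

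Other contents of the tissue were read from marker lists. Of 8 macrophage genes 5 were called higher and 0 lower by edgeR (0 lower also by DESeq2, limma-voom and at an unadjusted p under 0.05), with a summed level of 281 to 297 CPM among WT and 435 to 471 CPM among KO samples. Fetal liver genes, which would mark tissue from the site of red cell formation, were low in every library at 1.37 to 15.8 CPM among WT and 2.92 to 6.88 CPM among KO samples, with 0 of 5 tested called by edgeR, 0 at an unadjusted p under 0.05 and 0 by DESeq2 and limma-voom. Of 8 neutrophil genes edgeR called 2 higher and limma-voom 3, and 0 were lower by edgeR, DESeq2, limma-voom or at an unadjusted edgeR p under 0.05, with 6.18 to 25.7 CPM among WT and 9.95 to 14.4 CPM among KO samples. Of 8 proliferation genes 0 were called by edgeR, DESeq2 or limma-voom and 6 were lower at an unadjusted edgeR p under 0.05, with 1010 to 1040 CPM among WT and 876 to 957 CPM among KO samples, and of 8 cartilage and bone genes 1 was called higher and 3 lower. The part of any of these in the erythroid values was not tested.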

How the data were processed

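RNA-seq of total RNA covered 3 WT and 3 KO leg muscle samples. Per the labels, the authors trimmed reads with Trim Galore 0.6.6, mapped them with HISAT2 2.2.1 to mm10 and obtained counts per gene with featureCounts 2.0.1. The deposited values are raw counts, with no normalization. Symbols and positions came from GENCODE M21 by Ensembl ID without version (55227 of 56262 found).

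In R 4.3.3, edgeR 4.0.16 was run with filterByExpr, TMM factors and the quasi-likelihood F-test on genotype, adjusted by Benjamini-Hochberg over 22071 genes and called at adjusted p under 0.05 and a fold over 1.5. Log2 CPM used a prior count of 2. The script was tested on simulated data. The genes and lists were chosen with earlier results of these data known. The genes that could be named were the 8 chosen genes, in each list the 4 called genes with the largest change and the 2 most abundant, the 10 genes with the nearest profile, and Synpo2. Other list genes (among them Tal1, Epor, Slc25a37, Ank2 and, in the globin ratios, Trim10) were named for their role after their values were seen. The values of some list genes are not reported here. Lists covered membrane, heme and iron, transcription, enzymes and maturation, globins, platelets, mast cells, neutrophils, macrophages, endothelium, fetal liver, skeletal muscle, keratinocytes, cartilage and bone, proliferation, spectrin and ankyrin paralogs and sex-linked genes. Promoters were those of RefSeq. Alternatives were RLE, upper-quartile and library size scaling, other filters, DESeq2 1.42.0, limma-voom (limma 3.58.1), a replicate block, other fold thresholds, no globins, the per-sample files and leaving out each sample. A Y-linked covariate and the profiles nearest to each single gene were chosen after seeing the data. Replicates differed beyond counting noise (mean chi-square per gene 4.85 to 32.9). Deviations of same-numbered WT and KO samples correlated at -0.20, -0.13 and 0.05, so samples were not paired.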

Additional observations from a re-analysis of the deposited data

How the results depend on the processing

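Among the other erythroid genes, 11 fell and 4 rose. With no fold threshold 19 fell and 9 rose, and with a fold over 2, 8 fell and 0 rose by edgeR, DESeq2 and limma-voom, fewer by construction (10 were higher at an unadjusted edgeR p under 0.05 and any fold). Other scalings, filters, DESeq2 and limma-voom gave 10 to 13 falls and 4 rises. The Y-linked covariate gave 11 falls, 4 rises and a median of -0.13. Leaving out a sample gave 10 to 12 falls and 4 to 5 rises. Their median of -0.10 was -0.035 with upper-quartile factors and -0.17 with library size only, and it lay between -0.13 and -0.0663 when a sample was left out, the latter without WT replicate 2. The replicate block gave 11 falls and 4 rises and a median of -0.10, and the numbers do not pair the samples.

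The log2 fold change of Alas2 stayed between -3.19 and -2.97, of Slc4a1 between -2.21 and -1.87, of Epb42 between -1.70 and -1.11 and of Sptb between 0.63 and 0.77. Klf1 ranged from 0.12 to 0.39 and Rhag from 0.96 to 1.72. Gata1, which is also the median of the 7 genes in most settings, changed sign around 0, from -0.077 to 0.060. Rhd no longer passed with upper-quartile factors (-0.58), without WT replicate 2 (-0.57) or without KO replicate 3 (-0.58). Car2 and Prdx2 passed with library size only (-0.61 and -0.62), and Car2 also without WT replicate 3, KO replicate 2 or KO replicate 3; the cause was not tested. Low counts limit Epb42, Klf1 and Rhag most, and 3 samples per genotype limit every SD.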

Other observations

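Relatives of Sptb were measured in the same tissue. Of 8 spectrin and ankyrin genes, 2 rose and 3 fell, and Ank1 is described above. Sptbn1, the widely expressed beta-spectrin, was at 473 ± 3.96 CPM among WT and 544 ± 7.99 CPM among KO samples, within the fold threshold at 0.20 on the log2 scale, and Sptan1, the alpha-spectrin of most tissues, at 327 ± 4.80 and 336 ± 6.33 CPM (0.038). Sptbn4 fell from 198, 214 and 204 counts in WT to 59, 68 and 74 counts in KO (log2 fold change -1.65). Ank3 rose from 64.5 ± 1.77 to 102 ± 9.07 CPM (0.66, edgeR adjusted p = 2.27e-05), and Ank2 stood at a log2 fold change of 0.26. The beta-spectrins thus moved in different directions, with Sptb higher and Sptbn4 lower in KO.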
